A study of Mus musculus with 16 samples.

Results

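Cytosolic ribosomal protein genes were examined in graft-derived macrophages and host microglia of the mouse brain. They were taken by symbol, as Rpl or Rps followed by a number with an optional a, x, y or l, or as Rplp0, Rplp1, Rplp2 or Rpsa. The rule gave 86 of the 24411 genes of the count table, 33 of them of the small subunit (Rps, Rpsa) and 53 of the large subunit (Rpl, Rplp). The rule uses names only and no measured value.

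The samples were C57BL/6J mice, wild type by their labels, that had been irradiated (950 cGy) and given donor bone marrow (BM chimeras). At 9 months after this (the labels give 3.5 or 9 without saying for which mice), 4 of the 8 mice (mice 1 to 4) received lipopolysaccharide (LPS, a bacterial endotoxin) at 2.5 mg/kg and were killed 12 h later, and 4 (mice 5 to 8) were not injected. From each brain, engrafted cells carrying CD45.1 and host microglia carrying CD45.2 were sorted (CD11b positive with little of their CD45 form, and without Ly6C/G), and one 3′-end RNA-seq library was made from each, so that 4 groups of 4 libraries were available. All mice, the controls included, were irradiated chimeras, so the host microglia were irradiated cells. LPS was compared between mice, while both populations came from the same mice. The main tests had no term for the mouse and so did not use this pairing. A fit with the mouse as a block was an alternative.

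Ribosomal proteins are the protein part of the ribosome. A small subunit reads the mRNA, a large subunit joins the amino acids, and a stalk of acidic proteins on the large subunit recruits the translation factors. In mammals the ribosomal protein mRNAs belong to the terminal oligopyrimidine (TOP) class: they begin with a run of C and T at the 5′ end, through which the kinase mTORC1 and the RNA-binding protein Larp1 set their translation and stability. Ribosomal protein genes are also known for many processed pseudogenes, retro-copies of their mRNAs scattered over the genome.

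The start sites of 8 members whose levels the results below turn on are printed here because the pyrimidine run lies there. Each stretch is from RefSeq (GRCm38.p6), 5′ to 3′ on the strand of the gene, and covers the 40 bases before the annotated start and the first 20 from it. Capitals mark a run of at least 8 consecutive C or T that lies within 20 bases of the start on either side.
Rplp2 (chr7:141447611-141447670, plus strand): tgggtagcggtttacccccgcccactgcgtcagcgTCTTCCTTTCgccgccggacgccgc
Rps24 (chr14:24490638-24490697, plus strand): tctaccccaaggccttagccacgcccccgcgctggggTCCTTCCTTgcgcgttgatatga
Rpl35a (chr16:33056442-33056501, plus strand): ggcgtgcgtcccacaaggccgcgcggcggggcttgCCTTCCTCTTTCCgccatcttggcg
Rpl22l1 (chr3:28805468-28805527, plus strand): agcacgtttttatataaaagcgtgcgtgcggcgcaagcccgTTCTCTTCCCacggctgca
Rpl23 (chr11:97782420-97782479, minus strand): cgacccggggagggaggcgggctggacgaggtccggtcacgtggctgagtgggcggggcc
Rps3a1 (chr3:86142649-86142708, minus strand): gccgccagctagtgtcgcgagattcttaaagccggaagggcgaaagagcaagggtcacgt
Rps4x (chrX:102189372-102189431, minus strand): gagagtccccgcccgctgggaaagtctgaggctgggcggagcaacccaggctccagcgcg
Rps15 (chr10:80292391-80292450, plus strand): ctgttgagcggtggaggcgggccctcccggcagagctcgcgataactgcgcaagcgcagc
The first 4 hold such a run and the other 4 do not. The table of promoters held 65 of the 86 members, and 31 of these (47.7%) had a run, against 18.4% of all 27025 genes in it. Only the strand of the gene was read, and a gene with several annotated starts was given its longest run. The stretches without capitals show only that no run of this length lies in this window. Shorter runs were not counted, such as 7 bases in Rps15 and 5 in Rps3a1. The shares depend on this cutoff.

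The libraries held 395283 to 1203597 reads on genes, or 64.03 to 76.5% of their mapped tags. A summed level of 5 microglial markers (P2ry12, Tmem119, Sall1, Siglech and Slc2a5) was 6408 to 8022 CPM (reads scaled to a TMM-adjusted library of 1000000) in host control libraries against 2057 to 2616 in engrafted control libraries, and 5 markers of engrafted cells (Ms4a7, Apoe, Ccr2, Clec12a and Runx3) were at 57966 to 81641 against 3907 to 7361 CPM, each in the direction of the labels. The study's text names all of these markers but Clec12a as differing between the populations in these samples. Their direction is therefore no independent check of the labels. After LPS the microglial sum was lower, at 1732 to 2176 CPM in host and 1023 to 1348 CPM in engrafted libraries. Neutrophil markers were at 24.02 to 1176 CPM in engrafted libraries and at 0 to 15.6 CPM in host libraries. Astrocyte markers were at 151 to 308 CPM in host libraries and at 11.6 to 45.2 CPM in engrafted libraries. Choroid plexus markers had a median of 307 CPM in host control and 1209.9 CPM in host LPS libraries. In engrafted libraries their median was 848 CPM in controls and 627 CPM with LPS. Monocyte markers rose in range from 179 to 319 CPM in engrafted control libraries to 914 to 1787 CPM in engrafted LPS libraries, and were at 9.35 to 25.2 CPM in the host. The engrafted library of control mouse 5 had the lowest sums of engrafted and of monocyte markers among the engrafted controls (57966 and 179 CPM). Both lists hold Ccr2, so these sums are not separate observations. Its neutrophil sum (286 CPM) was above that of mouse 8 (267 CPM). Its microglial sum (2540 CPM) lay within the range of the other engrafted controls. Red blood cell markers reached 4867 CPM in the engrafted library of control mouse 8 and 6860 CPM in that of LPS mouse 4. The part of these cells in the results below was not tested. In sorted bulk samples, fewer cells of a type and less RNA per cell cannot be told apart.

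The 86 genes together took 2.56 ± 0.54% of the reads on genes in engrafted control libraries (SD, n = 4 mice here and below), 1.70 ± 0.10% in host control libraries, 2.31 ± 0.06% in engrafted LPS libraries and 2.56 ± 0.33% in host LPS libraries. Host microglia thus had the lowest share without LPS, and their 4 control libraries (1.57 to 1.79%) lay below all 4 of their LPS libraries (2.28 to 3.03%). In engrafted control libraries the share was 1.78% in mouse 5, 2.86% in mouse 6, 2.65% in mouse 7 and 2.95% in mouse 8. Mouse 5 stood apart from the other engrafted controls and lay within the range of the host controls, and without it the mean was 2.82%. Within mice, the engrafted library exceeded the host library by 0.018, 1.18, 0.860 and 1.39 percentage points in control mice 5, 6, 7 and 8. After LPS the difference was -0.276, -0.752, 0.118 and -0.079 points in mice 1 to 4, on both sides of 0. Small subunit genes went from 0.627 ± 0.028% in host controls to 1.08 ± 0.25% in engrafted controls, and large subunit genes from 1.07 ± 0.07% to 1.48 ± 0.29%. These shares are given as a description, with no test.

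**Figure D1:**
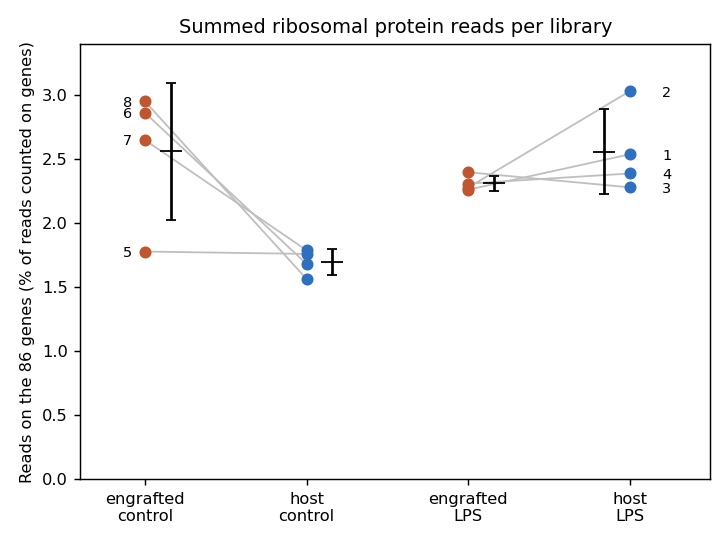
Share of the reads counted on genes that fell on the 86 ribosomal protein genes (y axis, percent) in each of 16 libraries, by group (x axis). Points are libraries, grey lines join both libraries of a mouse, numbers are mouse numbers, and black marks are mean ± SD. In the plot 3 of 4 engrafted controls lie above all host controls, and mouse 5 (1.78%) does not.

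Of the 86 members, 62 had enough reads to be tested in all 5 comparisons, and 18 were tested in none. The 18 had 0 to 106 reads over the 16 libraries, Rpl10l had none, and Rpl11, Rpl7, Rpl9, Rps12 and Rps27 were among them. One reason to treat single members with care is in the genome. Of 80 members with a transcript model, 23 had no 50-base window in their last 200 bases that was unique in the genome, and 19 had every window unique, while the deposited counts hold uniquely mapped reads only. Members with at least 50% of windows unique had a median of 1438 reads over all libraries, and the other members 468. A change in a member with retro-copies is therefore uncertain as to which copy gave the reads, and the counts below are also given by this property.

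The first comparison was of engrafted cells with host microglia in mice without LPS. Ribosomal protein genes were higher in engrafted cells: 42 of 64 members tested were called higher and 2 lower (Rpl5 and Rps4l), at a Benjamini-Hochberg adjusted p below 0.05 in edgeR's quasi-likelihood test over all genes tested. Over all genes tested, 13.6% were called higher and 13.7% lower. The members' median log2 fold change was 0.70, against 0.02 over all genes. At the further requirement of a 2-fold difference, 13 members were higher and 1 lower, against 6.25% and 4.73% of all genes. Among small subunit genes 21 of 26 tested were called higher, with a median of 0.84, and among large subunit genes 21 of 38, with a median of 0.62. Of members with at least 50% unique windows 15 of 27 were higher, and of the others 23 of 32. The 4 engrafted libraries lay above all 4 host libraries for 23 of the 64 (12.7% of all genes). Leaving out each library in turn gave 35 to 53 members higher, 34 of the 42 in every such fit, and the 53 came without engrafted mouse 5. With the mouse as a block, 47 were higher and only Rps4l was lower. Shares of all genes called in these refits, here and below, are not given. A changed count may therefore not be particular to the members.

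After LPS few members differed between the populations. None of 65 members tested was called higher in engrafted cells by edgeR and 3 were lower (Rpl5, Rps4l and Rps6), against 9.52% higher and 7.62% lower over all genes. The members' median log2 fold change was -0.04, against -0.01 over all genes. At an unadjusted p below 0.05, 2 members were higher, and DESeq2 called 1 higher (Rps9). Shares of all genes by either rule are not given here, so these counts have no baseline. With the 2-fold rule none was higher and 2 were lower (6.73% and 4.34% of all genes). The groups did not overlap for 1 member higher and 3 lower (10.5% and 10.2%). The members' individual log2 fold changes ran from -2.09 to 0.77.

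**Figure D2:**
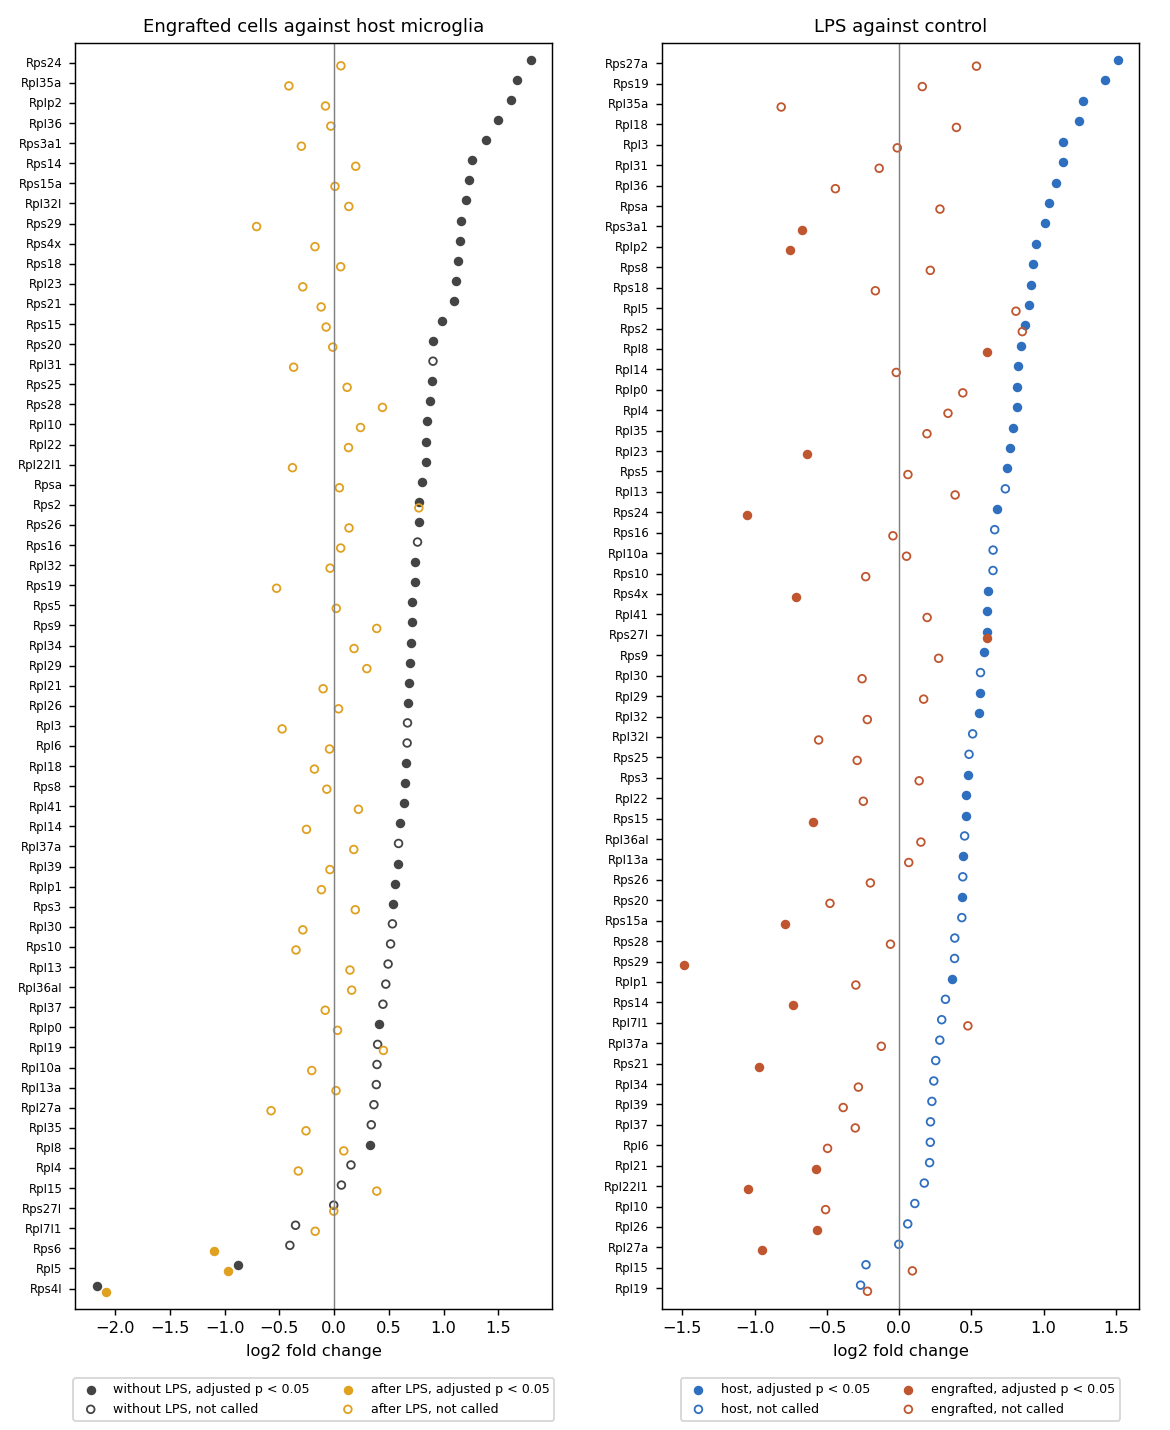
Log2 fold change (x axis) of members tested in both comparisons of a panel (y axis, symbols), for engrafted against host cells (left; dark grey without LPS, yellow after LPS) and for LPS against control (right; blue in host, orange in engrafted). Filled points have an adjusted p below 0.05. Dark grey points lie to the right of 0 for most members while yellow points scatter around 0, and in the right panel most blue points are right of 0 and the orange ones spread to both sides.

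In host microglia, LPS was followed by higher ribosomal protein mRNA. Of 65 members tested, 35 were called higher and none lower, against 19.2% and 20.5% of all genes. At an unadjusted p below 0.05 there were 41 higher and 0 lower, and DESeq2 called 33 higher and 0 lower. Shares of all genes by either of these rules are not given here. The median log2 fold change was 0.55 against 0.01 over all genes, and 9 members passed the 2-fold rule (7.66% of all genes, with 10.4% lower): Rps27a, Rps19, Rpl35a, Rpl18, Rpl3, Rpl31, Rpl36, Rpsa and Rps3a1. Both subunits were represented, with 16 of 27 small and 19 of 38 large subunit genes called. Of members with at least 50% unique windows 15 of 27 were called, and of the others 19 of 33. For 31 of the 65 no LPS library overlapped a control library (17.0% of all genes). Leaving out each library in turn gave 30 to 39 higher, 27 of the 35 in every such fit.

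In engrafted cells the same challenge gave a mixed picture. Of 63 members tested, 2 were called higher (Rpl8 and Rps27l) and 15 lower, against 19.4% higher and 19.3% lower over all genes, so members lower were about as frequent as lower genes in general. The median log2 fold change was -0.22 against -0.01 over all genes. Among the 15 were Rpl21, Rpl22l1, Rpl23, Rpl26, Rpl27a, Rplp2, Rps14, Rps15, Rps15a, Rps21, Rps24, Rps29, Rps3a1 and Rps4x, and 3 of them (Rps29, Rps24 and Rpl22l1) passed the 2-fold rule (11.3% of all genes). The groups did not overlap for 3 members higher and 4 lower (17.4% and 17.7% of all genes). This count of 15 rested on few libraries. It was 7, 8 and 6 without engrafted control mouse 6, 7 and 8, and 20 without mouse 5, and 5 members (Rpl22l1, Rpl27a, Rps21, Rps24 and Rps29) were lower in every such fit. Summed monocyte markers were higher with LPS in the same engrafted libraries (914 to 1787 against 179 to 319 CPM), and so was the share of mapped tags on genes, without overlap (68.3 to 76.5% against 64.03 to 66.3%). The part of either in these values was not tested.

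The difference between both LPS responses was tested as an interaction over all 16 libraries. For 16 of 68 members tested engrafted cells had the lower response of both populations, and for none the higher, against 2.90% lower and 2.97% higher over all genes. At an unadjusted p below 0.05 none was higher either, and DESeq2 gave 18 lower and 0 higher, again without a share of all genes for comparison. The members' median was -0.74 on the log2 scale, against -0.04 over all genes. A negative estimate was found for 64 of 68 members, and the share of all genes with one is not given here. With the 2-fold rule 14 were lower and none higher (2.50% and 2.45% of all genes). The 16 were 11 of 28 small subunit genes (among them Rps14, Rps15, Rps18, Rps19, Rps20, Rps21, Rps24, Rps29, Rps3a1 and Rps4x) and 5 of 40 large subunit genes (Rpl14, Rpl23, Rpl35a, Rpl36 and Rplp2). Of members with at least 50% unique windows 4 of 28 were called (Rpl14, Rpl23, Rps14 and Rps24), and of the others 12 of 35. For 6 members (Rpl23, Rplp2, Rps15, Rps24, Rps3a1 and Rps4x) the host response was called higher and the engrafted response lower. Of these 6, only Rps24 kept its lower call in engrafted cells in every fit that left out 1 library. Leaving out each library in turn gave 10 to 24 members lower. The count was 10 without engrafted control mouse 7 and without host control mouse 6, and 24 without engrafted control mouse 5, and 9 members (Rpl23, Rpl35a, Rpl36, Rplp2, Rps15, Rps21, Rps24, Rps3a1 and Rps4x) were called in every fit. The comparisons share libraries, the host controls entering 3 of the 5, so their counts are not independent of each other.

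**Figure D3:**
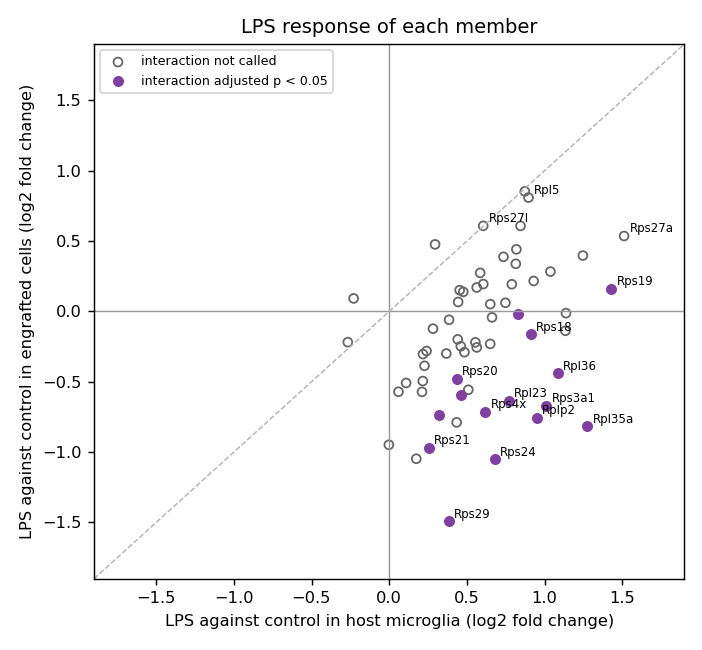
Log2 fold change of LPS against control in host microglia (x axis) and in engrafted cells (y axis) for members tested in both. Purple points have an interaction adjusted p below 0.05, the dashed line marks equal responses, and most points lie below it, with Rpl35a, Rps24 and Rps29 among the farthest and Rpl5 and Rps27l close to it.

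The stalk proteins were followed first. Rplp2 (NM_026020, chr7:148633549-148637241), an acidic stalk protein, was at 74.7, 205, 194 and 208 CPM in the engrafted libraries of control mice 5 to 8 and at 54.8, 49.1, 48.3 and 65.5 CPM in the host libraries of the same mice. After LPS it was at 103, 105, 83.3 and 108 CPM in engrafted libraries of mice 1 to 4 and at 86.9, 99.2, 106 and 131 CPM in host libraries. All engrafted control libraries, mouse 5 by the smallest margin, lay above all host control libraries, and after LPS the populations overlapped. The difference without LPS was 3.07-fold (log2 fold change 1.62 ± 0.23, adjusted p = 3.87e-06). Here and below, ± values of fold changes are standard errors back-calculated from the F statistic of the edgeR test. The host response was log2 fold change 0.95 ± 0.18, adjusted p = 2.33e-04, the engrafted response -0.75 ± 0.25, adjusted p = 0.0233, and their difference -1.71 ± 0.33, adjusted p = 0.00138. No 50-base window at its 3′ end was unique, so its reads cannot be set apart from those of its copies by these windows. Rplp1, its partner, took 13.2% of all reads on the 86 genes. It was at 3603 ± 898 CPM in engrafted and 2460.0 ± 118 CPM in host controls (log2 fold change 0.56 ± 0.14, adjusted p = 0.00293), and rose in host cells after LPS to 3186 ± 361 CPM (log2 fold change 0.37 ± 0.14, adjusted p = 0.0351). Rplp0, which anchors the stalk, went from 683 ± 68.8 CPM in host controls to 1208 ± 366 CPM after LPS (log2 fold change 0.82 ± 0.18, adjusted p = 7.29e-04). In engrafted cells Rplp0 was at 906 ± 184 CPM without LPS and 1226 ± 111 CPM with it (log2 fold change 0.44 ± 0.18, adjusted p = 0.0658), and its interaction was not called (adjusted p = 0.450).

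Among small subunit genes, Rps24 (NM_207634, chr14:25309903-25315368) had the largest excess in engrafted cells without LPS of the 64 members tested, and its windows were all unique. It was at 381, 814, 781 and 859 CPM in engrafted control libraries and at 233, 224, 206 and 154 CPM in host control libraries. After LPS it was at 394, 238, 433 and 291 CPM in engrafted and 312, 312, 349 and 339 CPM in host libraries. Engrafted controls lay above host controls in every library, whereas LPS libraries of both populations overlapped. Without LPS the difference was 3.47-fold (log2 fold change 1.80 ± 0.19, adjusted p = 3.57e-08), and after LPS its log2 fold change was 0.06 ± 0.21, adjusted p = 0.893. LPS raised it in the host (0.68 ± 0.15, adjusted p = 9.35e-04) and lowered it in engrafted cells (-1.05 ± 0.25, adjusted p = 0.00203), with an interaction of -1.74 ± 0.31, adjusted p = 5.84e-04. Rps3a1, a protein of the small subunit platform, was likewise highest on average in engrafted controls and lowest in host controls. It was at 138, 322, 251 and 347 CPM in engrafted controls, 109.7, 81.8, 94.2 and 116 CPM in host controls, 214, 166, 149.9 and 116 CPM in engrafted LPS libraries and 218, 164, 207 and 222 CPM in host LPS libraries. It rose 2.01-fold in host cells (log2 fold change 1.01 ± 0.16, adjusted p = 3.11e-05) and its interaction was -1.69 ± 0.32, adjusted p = 0.00121. Rps15, a protein of the small subunit head, was tightly spread in host controls (793, 729, 756 and 739.8 CPM). It was at 953, 1667, 1550.2 and 1782 CPM in engrafted controls, a 1.98-fold difference (log2 fold change 0.99 ± 0.14, adjusted p = 5.36e-06). After LPS it was at 983 ± 66.7 CPM in engrafted and 1041 ± 64.03 CPM in host cells (log2 fold change -0.07 ± 0.17, adjusted p = 0.842). Rps14 showed the difference without LPS (2.40-fold, log2 fold change 1.26 ± 0.18, adjusted p = 4.09e-06) and fell in engrafted cells (log2 fold change -0.74 ± 0.24, adjusted p = 0.0188), and its host response was not called (0.32 ± 0.15, adjusted p = 0.0929). Rps18 in turn rose in host cells from 141 ± 6.75 CPM to 265 ± 47.4 CPM (log2 fold change 0.91 ± 0.15, adjusted p = 5.78e-05), and was at 309.8 ± 95.3 CPM and 276 ± 37.2 CPM in engrafted cells without and with LPS.

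Members at lower levels carried larger errors. Rps29, a small zinc-binding protein, was at 28.7, 48.7, 53.6 and 37.1 CPM in engrafted controls and 8.78, 22.8, 15.4 and 8.73 CPM in engrafted LPS libraries, which did not overlap (2.81-fold lower, log2 fold change -1.49 ± 0.34, adjusted p = 0.00158). In the host it was at 14.8, 12.5, 31.2 and 12.1 CPM without and 37.3, 25.3, 11.9 and 20.9 CPM with LPS, overlapping. Its interaction of -1.88 ± 0.51, adjusted p = 0.0279, had a wide error. Rps19, best known because it is mutated in the anaemia named after Diamond and Blackfan, had its larger response in host cells. It was at 26.7, 32.7, 35.1 and 49.4 CPM in host controls and 109.5, 82.7, 92.7 and 110.3 CPM in host LPS libraries, a 2.69-fold rise (log2 fold change 1.43 ± 0.20, adjusted p = 6.49e-06). In engrafted cells it was at 34.8, 55.6, 68.7 and 92.7 CPM without and 91.1, 69.7, 62.8 and 37.8 CPM with LPS, with no call (log2 fold change 0.16 ± 0.28, adjusted p = 0.677), and the interaction was -1.27 ± 0.35, adjusted p = 0.0305. Rps27a, made as a fusion to ubiquitin, was too low to test between the control populations. It rose 2.85-fold in host microglia, from 8.89, 12.5, 7.01 and 10.1 to 27.1, 29.2, 27.3 and 26.5 CPM (log2 fold change 1.51 ± 0.28, adjusted p = 1.41e-04), and its interaction was not called (-0.98 ± 0.43, adjusted p = 0.197). Rps6, the substrate of the S6 kinases, was lower in engrafted than in host cells after LPS, at 13.2, 10.8, 11.5 and 8.73 CPM against 20.3, 33.1, 21.4 and 23.7 CPM (log2 fold change -1.10 ± 0.30, adjusted p = 0.0171). This call rested on 3 to 12 reads per engrafted LPS library. It was lost without engrafted LPS mouse 2 and without host LPS mouse 2. Without LPS the populations overlapped (-0.41 ± 0.37, adjusted p = 0.459). Rps21 fell in engrafted cells from 63.5, 111, 104 and 158 to 54.9, 49.2, 67.9 and 40.7 CPM (log2 fold change -0.97 ± 0.25, adjusted p = 0.00427). In host cells it was at 49.3 ± 5.68 CPM without and 59.3 ± 8.42 CPM with LPS (0.25 ± 0.19, adjusted p = 0.296), and its interaction was -1.23 ± 0.31, adjusted p = 0.0171. Rps15a differed 2.34-fold between control populations (log2 fold change 1.23 ± 0.26, adjusted p = 6.50e-04) and fell with LPS in engrafted cells (-0.79 ± 0.27, adjusted p = 0.0283). Rps20 had an interaction of -0.92 ± 0.28, adjusted p = 0.0433, with no call in engrafted cells.

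Rpsa and Rps3 are small subunit proteins with many reads and unique windows. Rpsa, also described as a laminin receptor, was at 299, 291, 309 and 236 CPM in host controls and 568, 872, 413 and 483 CPM in host LPS libraries, a 2.05-fold rise (log2 fold change 1.04 ± 0.19, adjusted p = 1.41e-04). In engrafted cells it was at 495 ± 119.9 CPM without and 602 ± 118 CPM with LPS, and neither its engrafted response nor its interaction was called (-0.77 ± 0.30, adjusted p = 0.137). Rps3, at the mRNA entry channel, differed by 1.45-fold between populations without LPS (log2 fold change 0.54 ± 0.14, adjusted p = 0.00575) and rose 1.39-fold in the host (log2 fold change 0.48 ± 0.15, adjusted p = 0.0124).

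**Figure D4:**
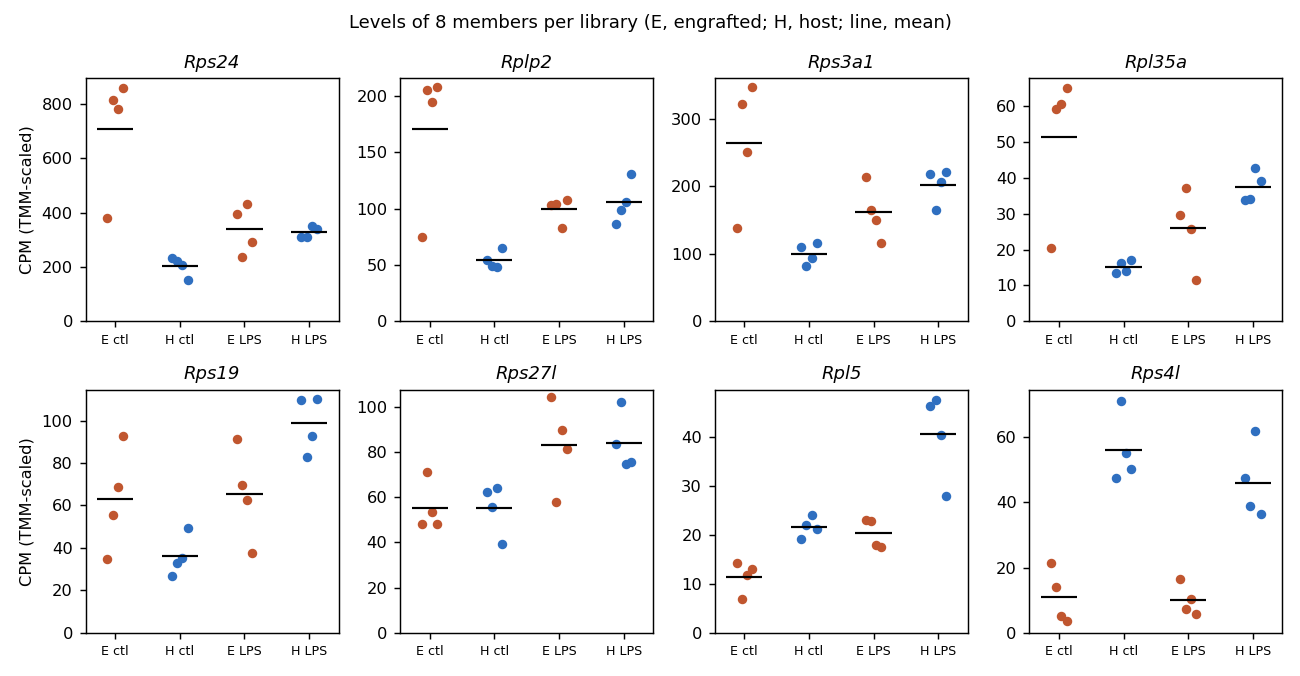
TMM-scaled CPM (y axis, from 0) of 8 members in each library by group (x axis; E, engrafted; H, host; ctl, control); points are libraries and lines are group means (n = 4). Rps24, Rplp2, Rps3a1 and Rpl35a have their highest values in 3 of 4 engrafted control libraries and their lowest means in host controls, Rps27l is higher with LPS in both populations on average, and Rpl5 and Rps4l are lower in engrafted cells.

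Among large subunit genes, Rpl35a (NM_021338, chr16:33056600-33060274) had the largest interaction. It was at 20.5, 59.1, 60.3 and 64.9 CPM in engrafted controls and at 13.3, 16.4, 14.0 and 17.1 CPM in host controls. After LPS it was at 29.6, 37.2, 25.6 and 11.6 CPM in engrafted and 33.9, 34.0, 42.8 and 39.1 CPM in host libraries. The host libraries did not overlap with and without LPS (fold 2.42, log2 fold change 1.27 ± 0.23, adjusted p = 1.40e-04). The engrafted response was not called (-0.82 ± 0.34, adjusted p = 0.0659), and the interaction was -2.09 ± 0.43, adjusted p = 0.00277. Rpl23, which lies on the face that meets the small subunit and has unique windows, was at 115, 199.9, 151 and 178 CPM in engrafted controls and 68.2, 86.6, 68.5 and 69.5 CPM in host controls. It fell in engrafted cells to 98.8, 103, 111 and 93.1 CPM (log2 fold change -0.64 ± 0.19, adjusted p = 0.0120) and rose in host cells to 109.5, 143, 114 and 135 CPM (log2 fold change 0.77 ± 0.16, adjusted p = 7.16e-04), with neither pair of groups overlapping. Its interaction was -1.41 ± 0.24, adjusted p = 4.04e-04. Rpl36 rose in host microglia from 30.3 ± 7.13 CPM to 63.8 ± 15.2 CPM (log2 fold change 1.09 ± 0.22, adjusted p = 5.24e-04), with engrafted controls at 85.9 ± 28.8 CPM. Rpl14, with unique windows and many reads, was at 686, 653, 679 and 656 CPM in host controls and 1262, 1293, 1057 and 1146 CPM in host LPS libraries (log2 fold change 0.83 ± 0.14, adjusted p = 4.24e-05), while the engrafted response was -0.02 ± 0.19, adjusted p = 0.948. Rpl3, at the peptidyl transferase centre, and Rpl18 also passed the 2-fold rule in host cells (2.20-fold and 2.37-fold), and their interactions were not called (adjusted p = 0.0808 and 0.188). For Rpl18 the host LPS library of mouse 2 was at 249 CPM and the other 3 at 108 to 126 CPM. Rpl27a fell in engrafted cells from 65.5, 113, 102 and 74.2 to 41.7, 28.8, 56.4 and 61.1 CPM (log2 fold change -0.95 ± 0.25, adjusted p = 0.00540) and was not called in the host (-0.00 ± 0.21, adjusted p = 0.994). Rpl31 rose 2.19-fold on few reads (log2 fold change 1.13 ± 0.32, adjusted p = 0.00701).

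Not all members followed this order. Rpl8, a conserved core protein with a high count, rose in both populations. It was at 1167, 1478, 1391 and 1737 CPM in engrafted controls and 2159, 1817, 2138 and 2657 CPM in engrafted LPS libraries, without overlap (log2 fold change 0.61 ± 0.18, adjusted p = 0.0120), and went from 1153 ± 103 CPM to 2077 ± 414 CPM in the host (log2 fold change 0.84 ± 0.15, adjusted p = 1.40e-04). Its interaction was -0.25 ± 0.23, adjusted p = 0.617. Rpl5, which with Rpl11 carries a small rRNA into the ribosome and can bind the p53 regulator Mdm2, was lower in engrafted cells in both conditions. It was at 14.3, 6.95, 11.7 and 12.98 CPM in engrafted and 19.3, 22.1, 24.1 and 21.2 CPM in host controls (1.84-fold, log2 fold change -0.88 ± 0.32, adjusted p = 0.0398), and at 23.0, 22.8, 17.9 and 17.5 against 46.3, 47.7, 40.4 and 27.9 CPM after LPS (1.95-fold, log2 fold change -0.97 ± 0.26, adjusted p = 0.0143). The populations did not overlap in either condition, and the host level rose with LPS (0.90 ± 0.23, adjusted p = 0.00299). The call without LPS was lost with the mouse as a block (adjusted p = 0.063). Leaving out 1 library at a time, it was also lost without engrafted control mouse 6, 7 or 8 and without host control mouse 6, 7 or 8. Rpl11 had 65 reads in all and was too low to test, at 2.05, 8.69, 3.35 and 9.27 CPM in engrafted controls and 1.48, 4.81, 3.89 and 4.03 CPM in host controls. Rpl13a, which in monocytes is known to be released from the ribosome to silence inflammatory mRNAs, was not called between populations (0.39 ± 0.16, adjusted p = 0.0681). It rose in host cells (log2 fold change 0.44 ± 0.18, adjusted p = 0.0484), with mouse 2 at 378 CPM and the other 3 at 211 to 225 CPM. Rpl41, the shortest ribosomal protein, was higher in engrafted than in host controls (log2 fold change 0.64 ± 0.17, adjusted p = 0.00465) and rose in the host (log2 fold change 0.61 ± 0.19, adjusted p = 0.0129). The 12 members tested in all 5 comparisons and called in none were Rpl10a, Rpl13, Rpl15, Rpl19, Rpl30, Rpl36al, Rpl37, Rpl37a, Rpl6, Rpl7l1, Rps10 and Rps16.

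Several members have a paralog. Rps4x and Rps4l are a pair, Rps4l (NR_003634, chr6:148303178-148304118) being annotated in RefSeq as a transcribed pseudogene. Rps4l was at 21.5, 13.9, 5.03 and 3.71 CPM in engrafted controls and 47.4, 71.2, 55.3 and 50.4 CPM in host controls (4.50-fold lower, log2 fold change -2.17 ± 0.31, adjusted p = 5.16e-06). After LPS it was at 16.5, 7.21, 10.2 and 5.82 against 47.4, 38.9, 61.8 and 36.3 CPM (4.25-fold lower, log2 fold change -2.09 ± 0.32, adjusted p = 1.19e-04). The populations did not overlap with or without LPS, and the host response was not called (-0.30 ± 0.21, adjusted p = 0.277). Rps4x went the other way, at 89.1, 113, 151 and 150.2 CPM in engrafted and 60.8, 60.6, 63.1 and 39.3 CPM in host controls (2.22-fold, log2 fold change 1.15 ± 0.18, adjusted p = 2.34e-05). It fell in engrafted cells with LPS (-0.71 ± 0.22, adjusted p = 0.0158) and rose in host cells (0.62 ± 0.18, adjusted p = 0.00963). Rps4x had no unique window and Rps4l 70.2% unique windows, so each count may miss reads that both genes share. Rpl22 and its paralog Rpl22l1, which can replace each other in the ribosome, were each higher in engrafted than in host controls. Rpl22 was at 578 ± 127 CPM against 322 ± 35.3 CPM (log2 fold change 0.84 ± 0.15, adjusted p = 8.10e-05) and Rpl22l1 at 81.0 ± 21.5 CPM against 43.8 ± 11.9 CPM (log2 fold change 0.84 ± 0.22, adjusted p = 0.00430). Rpl22l1 fell with LPS in engrafted cells, from 58.4, 106, 68.7 and 90.9 to 48.3, 22.8, 56.4 and 17.5 CPM without overlap (log2 fold change -1.05 ± 0.29, adjusted p = 0.00780), and Rpl22 was not called there (-0.25 ± 0.19, adjusted p = 0.315). Rps27l, a paralog of Rps27 known as a p53 target, was not called between populations (-0.00 ± 0.20, adjusted p = 0.991 without LPS). It was at 48.1, 71.3, 53.6 and 48.2 CPM in engrafted and 62.3, 55.8, 63.9 and 39.3 CPM in host controls, and with LPS at 104, 57.7, 89.7 and 81.5 CPM in engrafted and 83.5, 102, 74.8 and 75.4 CPM in host libraries. Its rise was 0.61 ± 0.22, adjusted p = 0.0377 in engrafted and 0.60 ± 0.19, adjusted p = 0.0150 in host cells, with an interaction of -0.01 ± 0.29, adjusted p = 0.997, and the call in engrafted cells was lost in 9 of 16 alternatives. Rps27 itself had 89 reads and was not tested. Of the other pairs, Rpl10 and Rpl39 were higher in engrafted than in host controls (0.85 ± 0.19, adjusted p = 0.00141, and 0.58 ± 0.17, adjusted p = 0.0126), and Rpl3, Rpl36al and Rpl7l1 were not called there. Rpl32l, a single-exon copy of Rpl32, was higher in engrafted controls (1.202 ± 0.38, adjusted p = 0.0206), as Rpl32 was (0.74 ± 0.15, adjusted p = 3.16e-04), and their reads may be shared. Rpl10l, Rpl36a, Rpl39l and Rpl3l had 0, 15, 9 and 6 reads over all libraries.

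A pyrimidine run of at least 8 bases was no more frequent among the members called than among the other members tested. Of members tested without LPS and with a promoter in the table, 14 of 29 called higher in engrafted cells (48.3%) and 12 of 19 others (63.2%) had one. For the rise in host cells it was 13 of 24 (54.2%) among those called and 13 of 24 (54.2%) among the rest. For the fall in engrafted cells it was 5 of 11 (45.5%) and 20 of 36 (55.6%), and for the interaction 5 of 11 (45.5%) and 23 of 40 (57.5%). These shares were not tested.

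Other genes of translation were described by lists. Of the ribosomal proteins outside the naming rule, Rack1 was higher in engrafted cells without LPS (log2 fold change 0.50 ± 0.13, adjusted p = 0.00652) and rose in host cells with LPS (log2 fold change 0.72 ± 0.14, adjusted p = 2.78e-04), and Fau was not called in these comparisons. Among 20 translation factors and other mRNAs of the TOP class, 19 were tested. In host cells 12 of 19 rose with LPS and none fell, with a median log2 fold change of 0.52 (19.2% and 20.5% of all genes). In engrafted cells 3 rose and 1 fell, with a median of 0.12, no more than the 19.4% and 19.3% of all genes. Without LPS 6 were higher in engrafted cells and none was lower (13.6% and 13.7% of all genes), and the interaction was lower for 3 (Npm1, Eef1b2 and Nap1l1, against 2.90% of all genes). Npm1, a nucleolar chaperone, was the largest of these (log2 fold change -1.33 ± 0.33, adjusted p = 0.0135), and Eef1g, a subunit of elongation factor 1, rose most in the host (log2 fold change 1.34 ± 0.16, adjusted p = 1.03e-06).

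Of 32 ribosome biogenesis genes, most of those tested in host cells and 14 of 28 in engrafted cells rose with LPS. In host cells 26 of 30 tested rose and none fell, with a median of 0.98 (19.2% and 20.5% of all genes), and in engrafted cells 2 fell, with a median of 0.66 (19.4% and 19.3%). Without LPS 3 of 27 were higher and 3 lower in engrafted cells, near the 13.6% and 13.7% of all genes. After LPS none of 30 was higher and 10 were lower (9.52% and 7.62% of all genes), and the interaction was lower for 3 of 31 (Ncl, Gnl3 and Dkc1, against 2.90%). Ncl, the nucleolar protein nucleolin, had an interaction of -1.15 ± 0.23, adjusted p = 0.00231. The host genes of snoRNAs, which carry TOP ends and are counted as spliced transcripts, rose in host cells for 6 of 8 tested (19.2% of all genes), while in engrafted cells 2 of 7 rose and 1 fell (19.4% and 19.3%). Gas5 and Snhg6 had a lower interaction (log2 fold change -1.16 ± 0.34, adjusted p = 0.0396 and log2 fold change -1.31 ± 0.37, adjusted p = 0.0337). Mitochondrial ribosomal proteins, encoded in the nucleus but used in another ribosome, were more often higher than lower with LPS in both populations. With LPS 20 of 69 rose and 3 fell in engrafted cells (median 0.48, against 19.4% and 19.3% of all genes), and 17 of 72 rose and 3 fell in host cells (median 0.32, against 19.2% and 20.5%). Without LPS 3 of 71 were higher and 4 lower in engrafted cells (median 0.00, against 13.6% and 13.7% of all genes). The interaction was called for none of 73 (2.97% higher and 2.90% lower over all genes). Of 24 genes that control translation through mTORC1 and the eIF2 kinases, 7 of 23 rose in host cells with LPS and none fell (19.2% and 20.5% of all genes), and in engrafted cells 3 rose and 1 fell (19.4% and 19.3%). Larp1, which binds TOP mRNAs, rose in host cells (log2 fold change 0.76 ± 0.15, adjusted p = 2.56e-04) and was not called in engrafted cells (log2 fold change 0.47 ± 0.20, adjusted p = 0.0732). Ddit4, an inhibitor of mTORC1, rose in both (log2 fold change 3.01 ± 0.22, adjusted p = 4.67e-10 in host and log2 fold change 4.01 ± 0.36, adjusted p = 3.18e-08 in engrafted cells). Sesn1, another inhibitor of this pathway, fell in engrafted cells from 345 ± 43.8 to 134 ± 3.85 CPM (log2 fold change -1.36 ± 0.17, adjusted p = 3.75e-06), with an interaction of -1.46 ± 0.24, adjusted p = 3.07e-04. It was at 126 ± 14.0 and 135 ± 31.1 CPM in host cells without and with LPS.

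**Figure D5:**
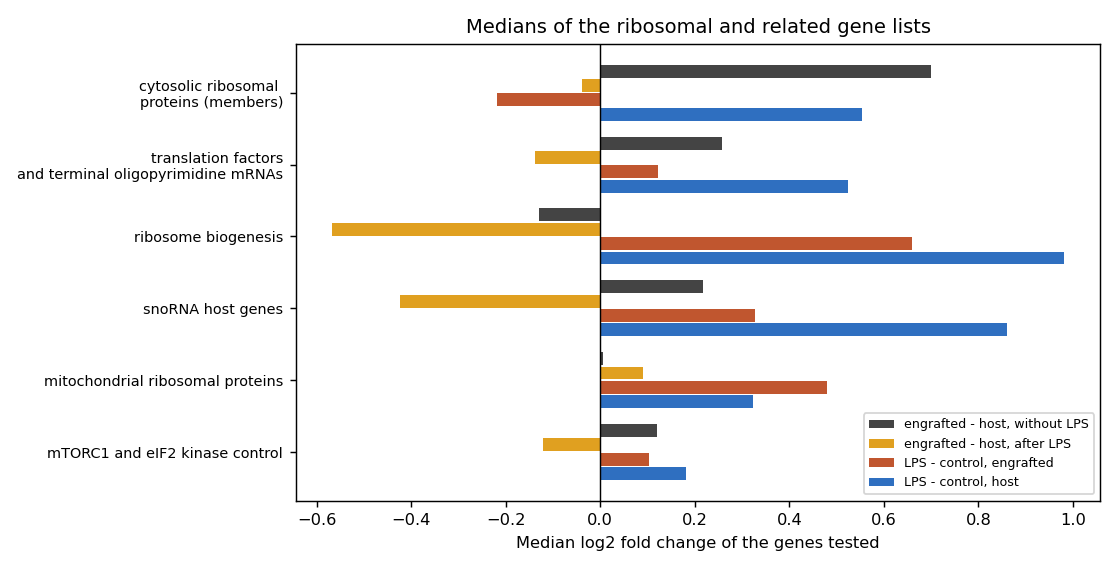
Median log2 fold change (x axis) of the genes tested in each list (y axis) for 4 comparisons; bars start at 0 and carry no error because genes of a list are not replicates. Members are at 0.70 without LPS and at 0.55 for LPS in host cells, ribosome biogenesis genes are at 0.98 and 0.66 for LPS in host and engrafted cells, and mitochondrial ribosomal proteins lie near 0 for the difference between populations.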

How the data were processed

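Poly(A) RNA of 10000 sorted cells per library, by the labels, was made into 3′-end libraries by a derivative of MARS-seq. Per the study's methods and the submitters' processing notes, the authors aligned reads to mm9 with HISAT (0.1.5 in the notes) and counted uniquely mapped reads on the exons of each gene, on the sense strand, with HOMER. The deposited values are raw counts per gene. Whether duplicate molecules were removed is not given in the sources used here, so p-values and counts cover reads. One transcript model stood for each gene, so reads of near-identical copies could be lost or misplaced.

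Libraries were grouped by title. Counts were tested with edgeR (4.0.16, R 4.3.3), as a quasi-likelihood fit on the libraries of each comparison and on all 16 for the interaction, after a filter for low counts (minimum 10, total 15) and TMM scaling, with Benjamini-Hochberg adjustment over all genes tested. These main fits had no term for the mouse. A call was an adjusted p below 0.05. Levels are TMM-scaled CPM. The edgeR fit was run on simulated counts for the population comparison without LPS and for the interaction. That simulation gave all genes the same dispersion and had no mouse effect. It therefore does not cover libraries that stand apart, such as engrafted control mouse 5. Members named with values were those with the largest changes (up to 6 per direction and comparison), those past the 2-fold rule, paralog pairs, and a set of members by role. Values of a few genes are not reported here, though counts and sums include them. The members and gene lists were chosen with earlier results of these data known. Unique windows were counted in the mm9 genome (NCBIM37) with GENCODE models, and coordinates of genes are those of the deposited mm9 table, whereas promoters are RefSeq's of GRCm38.p6. An exact permutation test of 4 against 4 libraries cannot go below p = 0.029, so its p-values for single members are not given here.

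Alternatives were DESeq2 (1.42.0), limma-trend (3.58.1), library totals in place of TMM, other filters on low counts, a 2-fold rule, the mouse as a block, a fit over all libraries, and leaving out each library. The labels give both populations of a mouse the same number, so the numbers pair them as samples of 1 animal. The correlation of their deviations from the group means ran from -0.03 to 0.21 over the 8 mice. All 24 pairs of libraries within a group differed by more than counting noise (chi-square per degree of freedom 2.07 to 10.1), so none was counted as a repeat. The date or pool of sequencing is not given in the sources used here, so no batch could be examined.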

Additional observations from a re-analysis of the deposited data

Results flagged for a closer look

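The LPS response differed between populations, by the interaction test of edgeR's quasi-likelihood fit, for 16 members, each lower in engrafted than in host cells. On the log2 scale the differences given here were -2.09 for Rpl35a, -1.88 for Rps29, -1.74 for Rps24, -1.71 for Rplp2, -1.69 for Rps3a1, -1.54 for Rpl36, -1.41 for Rpl23 and -1.34 for Rps4x. They were -1.27 for Rps19, -1.23 for Rps21, -1.08 for Rps18, -1.07 for Rps14, -1.06 for Rps15, -0.92 for Rps20 and -0.86 for Rpl14.

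In 13 of 133 groups of 4 libraries, 1 library lay apart from the other 3 by Dixon's criterion, which chance meets in about 1 of 20 groups. Engrafted control mouse 5 was the library apart for Rpl35a (20.5 CPM), Rplp1 (2265 CPM), Rplp2 (74.7 CPM) and Rps24 (381 CPM), below the other 3 each time. Host LPS mouse 2 was above the others for Rpl13a (378 CPM), Rpl18 (249 CPM) and Rps15a (145 CPM). Among host controls, mouse 6 was above the others for Rpl23 (86.6 CPM) and Rpl31 (16.4 CPM), mouse 7 above them for Rps29 (31.2 CPM), and mouse 8 below them for Rpl27a (50.4 CPM) and Rps4x (39.3 CPM). In engrafted LPS libraries Rplp1 was at 3469 CPM in mouse 4, apart from the other 3.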

How the results depend on the processing

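Without 1 library at a time, members called without LPS were 35 to 53 higher and 1 to 2 lower (median 0.62 to 0.88). After LPS they were 0 higher and 2 to 3 lower (median -0.09 to 0.03). For LPS in engrafted cells they were 1 to 4 higher and 6 to 20 lower (median -0.42 to -0.11), and in host cells 30 to 39 higher and 0 lower (median 0.51 to 0.58). For the interaction they were 0 higher and 10 to 24 lower (median -0.95 to -0.56). The lowest and highest lower counts for LPS in engrafted cells came without an engrafted control, and the lowest interaction count came without an engrafted or a host control. The mean share of reads ran from 2.43 to 2.82% in engrafted controls, 2.28 to 2.33% in engrafted LPS, 1.67 to 1.74% in host control and 2.40 to 2.65% in host LPS libraries. Without the 5 members of most reads the shares were 1.69, 1.51, 1.09 and 1.66% in that order, and the engrafted LPS share was 2.47% of TMM-scaled counts.

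With the 2-fold rule 13 members were higher and 1 lower without LPS, 0 higher and 3 lower for LPS in engrafted cells and 9 higher in host cells. The lower count without LPS was 1 with DESeq2, 1 with the mouse as a replicate block and 0 at 10 reads or more in each library. After LPS 1 member was higher with DESeq2 and 1 with no filter, none lower at 10 reads or more, and the median was -0.18 with library totals, which moved the median of all genes to -0.16. For LPS in engrafted cells 1 was higher with library totals, 1 at 10 reads or more and 4 in the fit over all libraries. The cause was not tested, beyond fewer genes tested under the stricter filter. The block changed no other count by over 1.5 times. Over the named members, 2240 single values kept their call, 109 lost and 38 gained one, and none reversed. Members under about 30 CPM have wide errors at this depth.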
